A study of Mus musculus with 13 samples.

Results

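The 10 genes described here encode the machinery that joins and divides mitochondria. They are *Opa1*, *Mfn1* and *Mfn2* (fusion), *Dnm1l*, *Fis1*, *Mff*, *Mief1* and *Mief2* (fission), and *Oma1* and *Yme1l1*, the proteases that cut the OPA1 protein. Members were the rows of the deposited count table named exactly so, and all 10 were found among the 27111 features with a gene name and passed the filter on low counts. The libraries came from testes of wild-type C57Bl/6J males (Bl6 wt in the labels) at 3 to 5 months of age, digested enzymatically and sorted for diploid, large cells with a high MitoTracker signal. Of these males, 6 were undisturbed controls and 7 had been through MSUS as pups. MSUS combined daily separation of the pups (3 h, postnatal days 1 to 14) with stress of the dam. The stress of the dam was a cold swim or restraint in a tube, and both parts were unpredictable. Each library was made from 5 ng of RNA of 1 mouse. The libraries held between 13087108 and 18649819 counts in the control group and between 12701664 and 15693836 in the MSUS group. As the sort selected cells by a mitochondrial dye, differences in mitochondrial mass between the groups could be narrowed before sequencing, and this was not tested. For the sequenced batch, the study reports that mitochondrial DNA copy number differed significantly between MSUS and control cells. In such bulk samples fewer cells of a type and less RNA per cell cannot be told apart.

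Mitochondria form a network that is constantly remodelled. MFN1 and MFN2 are GTPases that tether and fuse outer membranes, OPA1 is the GTPase that fuses inner membranes and holds cristae in shape, and DRP1, the product of *Dnm1l*, is recruited from the cytosol by receptors on the outer membrane and constricts the organelle. Sertoli cells are the somatic cells of the seminiferous tubule that nurse the germ cells.

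Promoter windows from RefSeq (GRCm38.p6), which run from 250 bases before to 50 bases after an annotated start site, are shown for 4 members because 2 of them, *Opa1* and *Mfn1*, had positive and the other 2, *Fis1* and *Mief2*, negative correlations with the level of mitochondrially encoded transcripts. Capitals mark matches to 3 motifs of nuclear factors of mitochondrial biogenesis, searched on both strands: NRF1 (a palindrome of 10 bases, whose letters are the capitals in the *Opa1* window), GABPA (CCGGAAGT) and ESRRA (TCAAGGTCA). *Mief2* had no match.
Opa1, chr16:29579084-29579383, plus strand: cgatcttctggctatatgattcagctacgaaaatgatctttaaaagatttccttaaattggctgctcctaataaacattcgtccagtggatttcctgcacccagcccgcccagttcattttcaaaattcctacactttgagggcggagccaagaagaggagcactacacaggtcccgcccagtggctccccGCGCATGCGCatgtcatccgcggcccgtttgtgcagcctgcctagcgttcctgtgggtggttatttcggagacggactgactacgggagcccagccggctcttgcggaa
Mfn1, chr3:32529232-32529531, plus strand: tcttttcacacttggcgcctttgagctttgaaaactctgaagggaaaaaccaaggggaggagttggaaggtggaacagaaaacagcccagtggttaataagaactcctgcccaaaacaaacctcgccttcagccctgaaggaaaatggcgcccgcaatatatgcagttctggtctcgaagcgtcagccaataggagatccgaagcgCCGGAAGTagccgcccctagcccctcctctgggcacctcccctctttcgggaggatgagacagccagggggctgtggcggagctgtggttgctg
Fis1, chr5:136953025-136953324, plus strand: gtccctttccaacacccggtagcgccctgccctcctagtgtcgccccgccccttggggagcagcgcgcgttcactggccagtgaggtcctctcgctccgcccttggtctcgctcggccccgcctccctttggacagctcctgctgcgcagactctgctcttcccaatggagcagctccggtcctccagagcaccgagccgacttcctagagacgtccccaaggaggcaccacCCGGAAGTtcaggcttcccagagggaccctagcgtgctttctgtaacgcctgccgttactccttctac
Mief2, chr11:60728148-60728447, plus strand: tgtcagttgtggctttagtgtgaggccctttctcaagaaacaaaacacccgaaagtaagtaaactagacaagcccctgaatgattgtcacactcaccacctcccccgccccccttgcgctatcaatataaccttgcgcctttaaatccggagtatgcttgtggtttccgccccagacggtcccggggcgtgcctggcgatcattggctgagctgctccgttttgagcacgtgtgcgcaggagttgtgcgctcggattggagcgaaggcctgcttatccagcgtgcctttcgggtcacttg
The NRF1 palindrome began 59 bases before the start site of *Opa1* and was found in the windows of 1 of the 10 members and in 0.971% of all 32851 windows. The GABPA motif was found for 3 members, *Mfn1* (44 bases before the start site), *Fis1* (18 bases before) and *Mief1* (65 bases before and again at base 12 after it), and in 3.89% of all windows. The ESRRA motif was found for 0 members and in 0.423% of all windows. A member had 1 to 3 windows, so counts per member and shares per window differ in unit. A match of letters is a description, and binding was not measured.

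Levels are given as log2 CPM, the counts of a gene scaled by TMM to a common library size with 2 as prior count, and members are ranked only after division by transcript length. Per kilobase of the principal transcript, *Mff*, which encodes the main outer membrane receptor of DRP1, had the highest level with 5.31 ± 0.09 log2 CPM per kb (SD, n = 13). *Fis1*, a small tail-anchored outer membrane protein, followed with 5.12 ± 0.19, and *Dnm1l* with 5.06 ± 0.07 log2 CPM per kb (SD, n = 13 for both). *Mff* exceeded *Fis1* in 11 of 13 samples, whereas *Fis1* and *Dnm1l* did not differ beyond their spread, with *Fis1* higher in 8 of 13 samples. *Opa1* had 4.84 ± 0.13, *Yme1l1* 4.59 ± 0.10 and *Mfn1* 4.40 ± 0.13 log2 CPM per kb (SD, n = 13 for each), and in this run each gene exceeded the next in at least 12 of 13 samples. *Mief2* (3.44 ± 0.11) and *Mfn2* (3.34 ± 0.19) were lower and overlapped, with *Mief2* higher in 9 of 13 samples. *Mief1* had 2.56 ± 0.17 and *Oma1* 1.53 ± 0.29 log2 CPM per kb (SD, n = 13 for both). By this measure *Mff* was above 86.9% and *Oma1* above 29.0% of the genes tested. Of the paralogous pairs, *Mfn1* was thus above *Mfn2* and *Mief2* above *Mief1*, and of the OPA1 proteases *Yme1l1* was above *Oma1*. With the median length of coding transcripts in place of the principal one, *Mfn1* ranked first, *Opa1* second and *Mff* behind them, while *Mief1* and *Oma1* stayed the last of the 10.

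**Figure D1:**
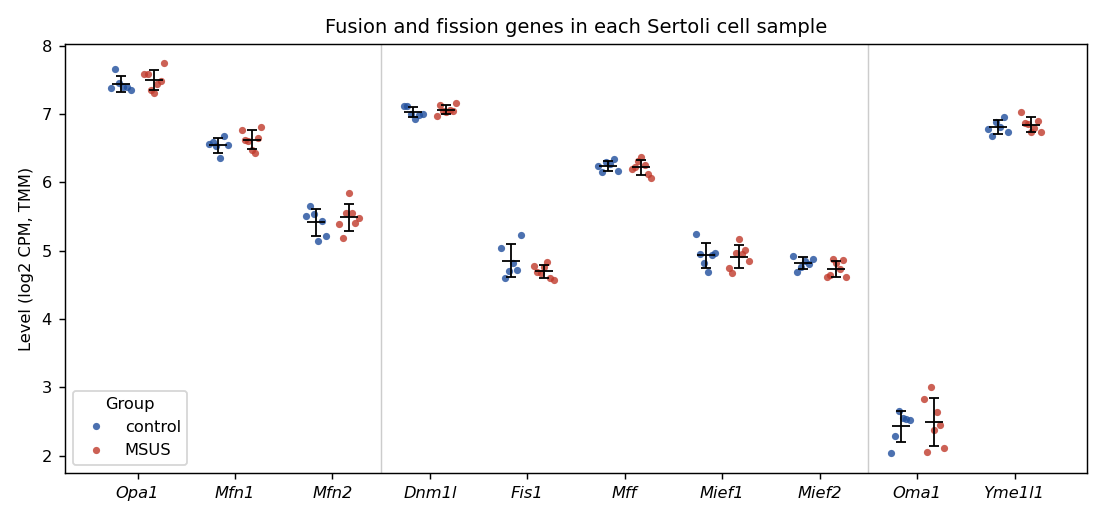
Level of each fusion and fission gene (log2 CPM after TMM) in 6 control (blue) and 7 MSUS (red) samples, with each dot a mouse and black lines the mean ± SD. The groups overlap for every gene, and the points of Oma1, between 2.03 and 3.01, spread most.

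The levels of the 10 genes were close in MSUS and control samples, and none passed the test. In the limma voom fit of all 14421 genes tested, 0 of 10 had an unadjusted p-value under 0.05, against 5.42% of all genes (781 genes), of which 435 were higher (3.02% of all genes) and 346 lower (2.4%) in MSUS samples. The log2 fold changes were between -0.14 and 0.08, 6 positive and 4 negative, and for all 10 genes the control and MSUS ranges overlapped, as they did for all but 0.132% of the genes tested. The 95% intervals of the fold changes allowed at most a decrease to 0.783-fold, for *Fis1*, and an increase to 1.21-fold for 9 of the genes and to 1.38-fold for *Oma1*. When each mouse was left out in turn, log2 fold changes moved between 0.04 and 0.11 for *Mfn1*, between 0.02 and 0.05 for *Dnm1l* and between -0.11 and -0.05 for *Mief2*. Adjusted p-values in limma were 0.885 or higher for these genes, and over all genes 0 had an adjusted p-value under 0.05 in limma, edgeR (793 with unadjusted p under 0.05) or DESeq2 (835). Litters and cages, which the study recorded, are not in the labels and were not used here. P-values and 95% intervals therefore treat the 13 mice as independent. If littermates are alike, these p-values could be too small and the intervals too narrow.

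**Figure D2:**
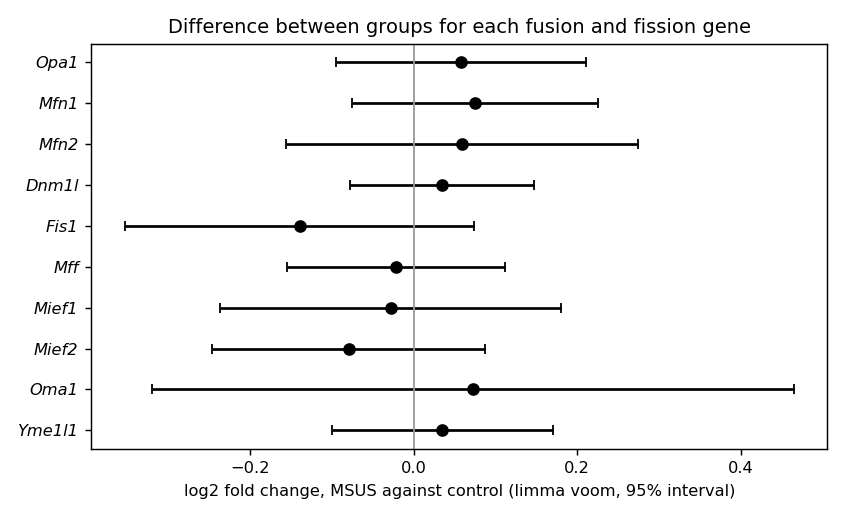
Log2 fold change of each fusion and fission gene, MSUS against control, with the 95% interval of the limma voom fit (6 control and 7 MSUS samples). Every interval includes 0, and that of Oma1, the gene with the fewest counts, is the widest.

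Among the fusion GTPases, *Opa1* (chr16:29579334-29654884 of GRCm38) had levels from 7.36 to 7.67 with a median of 7.40 log2 CPM in controls and from 7.31 to 7.74 with a median of 7.48 in MSUS samples. The highest samples were MSUS 26 and control 10, so both groups reached the upper end. The log2 fold change, with its standard error (SE), was 0.06 (SE 0.07, adjusted p = 0.929 in limma). It was 0.02 without MSUS 26 and 0.10 without control 10. *Mfn1* (chr3:32529465-32579239) ranged from 6.35 to 6.68 with a median of 6.56 in controls and from 6.44 to 6.81 with a median of 6.62 log2 CPM in MSUS samples. MSUS 26 and MSUS 1 were above all controls, while 5 of 7 MSUS samples were above the control mean, and the log2 fold change was 0.08 (SE 0.07, adjusted p = 0.906 in limma). The estimated count of *Mfn1* was not a whole number in 12 of 13 samples, by a tolerance of 0.005, against 0 to 3 samples for each of the other members, as can happen when reads are divided between features. No single partner was found. *Mfn2* (chr4:147873599-147904704) varied more, from 5.14 to 5.66 with a median of 5.47 in controls and from 5.19 to 5.84 with a median of 5.47 log2 CPM in MSUS samples. The highest was MSUS 11, and without it the log2 fold change of 0.06 (SE 0.10, adjusted p = 0.945 in limma) became 0.00057. In the same sample the difference between *Mfn1* and *Mfn2* in log2 CPM was the smallest of all, 0.63 against 0.89 to 1.43 in the remaining 12 samples. Markers of round spermatids were also highest in MSUS 11, with a summed level of 146 CPM against 64.7 to 99.9 in all others, as were those of spermatocytes (267 CPM) and elongated spermatids (1775 CPM). With the mean of the elongated spermatid markers as covariate the log2 fold change of *Mfn2* was 0.02.

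Of the fission genes, *Dnm1l* (chr16:16312230-16358959) was the steadiest member, with levels from 6.93 to 7.12 and a median of 7.01 in controls and from 6.97 to 7.17 and a median of 7.05 log2 CPM in MSUS samples. Its log2 fold change was 0.04 (SE 0.05, adjusted p = 0.942 in limma). *Fis1* (chr5:136953275-136966234) had the largest difference. Its levels were between 4.61 and 5.23 with a median of 4.77 in controls and between 4.58 and 4.83 with a median of 4.68 log2 CPM in MSUS samples. All 7 MSUS samples were below the control mean, but that mean was raised by controls 24 (5.23) and 9 (5.05), and the other 4 controls lay between 4.61 and 4.82, within the range of the MSUS samples. The log2 fold change of -0.14 (SE 0.10, adjusted p = 0.885 in limma) became -0.07 without control 24. Controls 24 and 9 were also the samples with the lowest mean level of mitochondrially encoded transcripts (9.23 and 9.38 log2 CPM) and the lowest level of *Malat1*, a nuclear long noncoding RNA (9.16 and 9.46 log2 CPM). The log2 fold change of *Fis1* was -0.024 with the mitochondrial mean and 0.06 with *Malat1* as covariate.

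The other DRP1 receptors had smaller differences than *Fis1*. *Mff* (chr1:82724890-82752394) ranged from 6.15 to 6.34 with a median of 6.25 in controls and from 6.07 to 6.37 with a median of 6.22 log2 CPM in MSUS samples. *Mief1* (chr15:80234018-80253371) and *Mief2* (chr11:60728398-60732951) encode MiD51 and MiD49, adaptors that gather DRP1 on the outer membrane. *Mief1* had levels from 4.69 to 5.25 with a median of 4.94 in controls and from 4.67 to 5.18 with a median of 4.95 log2 CPM in MSUS samples. For *Mief2* these were 4.69 to 4.93 with a median of 4.82 in controls and 4.61 to 4.88 with a median of 4.73 in MSUS samples. The 3 lowest samples of *Mief2*, MSUS 1, MSUS 26 and MSUS 5, were below all controls, and the other 4 MSUS samples lay within the control range. Log2 fold changes were -0.02 for *Mff*, -0.03 for *Mief1* and -0.08 for *Mief2* (SE 0.06, 0.10 and 0.08, adjusted p = 0.970, 0.976 and 0.911 in limma).

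The proteases of the inner membrane act on OPA1 under different conditions, since YME1L1 cuts it constitutively and OMA1 is activated by loss of membrane potential. *Yme1l1* (chr2:23156369-23199260) ranged from 6.68 to 6.96 with a median of 6.80 in controls and from 6.73 to 7.03 with a median of 6.85 log2 CPM in MSUS samples. Its log2 fold change was 0.04 (SE 0.06, adjusted p = 0.946 in limma), and 0.0029 without MSUS 1. *Oma1* (chr4:103313812-103371868) had only 44 to 88 counts per sample. Its levels ran from 2.03 to 2.65 with a median of 2.52 in controls and from 2.06 to 3.01 with a median of 2.45 log2 CPM in MSUS samples. Both groups had samples at the lower end, and MSUS 6 (3.01) and MSUS 1 (2.83) were above all controls. The log2 fold change was 0.07 (SE 0.19, adjusted p = 0.967 in limma). For a gene with this number of counts, counting error alone gives an SD of about 0.18 on the log2 scale. The observed SD was 0.29 (n = 13), so both counting error and the spread between samples limit what could be detected for *Oma1*.

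The balance between fusion and fission genes was described by the mean log2 CPM of the 3 fusion genes minus that of the 5 fission genes, a value in which the scaling of a sample nearly cancels. It was 0.89 ± 0.16 in controls (SD, n = 6), from 0.72 to 1.13 with a median of 0.87, and 1.01 ± 0.12 in MSUS samples (SD, n = 7), from 0.91 to 1.22 with a median of 0.99. The 3 lowest values were those of controls 24, 9 and 14, and the highest were those of MSUS 26, control 10 and MSUS 1, so the groups overlapped. The 4 highest values, with that of MSUS 5, came from the 4 samples with the most positive slope of expression on transcript length (described with *Opa1* and *Mief2*), and the part of this slope in the balance was not tested. The means differed by 0.12, about as much as 1 SD of the MSUS samples, and no test was made of it.

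The 13 mitochondrially encoded transcripts of respiratory chain subunits, averaged as log2 CPM, gave a measure of mitochondrial RNA in each sample. Each transcript had the same weight, also *ND4L*, which had only 37 to 719 counts per sample and an SD of 1.21 log2 CPM (n = 13). The mean was between 9.23 and 9.91 with a median of 9.55 in controls and between 9.49 and 10.29 with a median of 9.97 log2 CPM in MSUS samples. Of the 13 transcripts, 7 were higher in MSUS samples with an unadjusted p under 0.05 (against 3.02% of all genes) and 0 after adjustment in limma, and 3, *ND3*, *COX3* and *ATP8*, had negative log2 fold changes. The median was 0.40, and *Malat1* was 0.70 higher on the log2 scale in MSUS samples, so fits with either as covariate can take up part of a group difference. Across the 13 samples, *Fis1* (Pearson's r = -0.65, permutation p = 0.0118, Spearman's rho = -0.63, permutation p = 0.0253) and *Mief2* (r = -0.65, permutation p = 0.0184, rho = -0.65, permutation p = 0.0195) had negative coefficients with a permutation p under 0.05. No share over all genes is given for this permutation test, so these 2 genes have no background of the same form. In the limma fit over all genes without a group term, 1 of the 10 members, *Fis1*, had a slope with p under 0.05, against 13.2% of all genes. *Mief1* also had negative coefficients (r = -0.48, permutation p = 0.0972, rho = -0.48, permutation p = 0.101). *Mfn1* (r = 0.52, permutation p = 0.0693, rho = 0.55, permutation p = 0.0558) and *Opa1* (r = 0.51, permutation p = 0.0791, rho = 0.40, permutation p = 0.182) had positive coefficients. The remaining 5 genes had r between 0.01 and 0.36 and permutation p-values of 0.233 or higher. These were 10 relations, and all tests were two-sided with 100000 permutations. All points share a library and its normalization with the mean they are set against.

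Without MSUS 5 and MSUS 6, the 2 samples farthest from the median of the mitochondrial mean, r was -0.69 for *Fis1*, -0.87 for *Mief2*, -0.43 for *Mief1*, 0.63 for *Mfn1* and 0.71 for *Opa1*. Within the groups, *Fis1* had r = -0.86 in controls and -0.30 in MSUS samples, and *Mief2* had -0.78 in controls and -0.46 in MSUS samples. The coefficients of *Opa1* were 0.47 in controls and 0.46 in MSUS samples, and those of *Mfn2* were of opposite sign, 0.64 in controls and -0.50 in MSUS samples, a difference that was not tested.

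In a limma voom fit over all genes with the group as a further term, 0 of the 10 genes had a slope on the mitochondrial mean with an unadjusted p under 0.05, against 8.72% of all genes tested. edgeR likewise gave 0. The slope of *Fis1* was -0.37 log2 CPM per unit of the mitochondrial mean (SE 0.18, adjusted p = 0.578 in limma). For *Mief2* it was -0.21 (SE 0.14, adjusted p = 0.689 in limma), for *Mief1* -0.33 (SE 0.17, adjusted p = 0.616 in limma) and for *Opa1* 0.21 (SE 0.13, adjusted p = 0.647 in limma). Without the group term *Fis1* alone had an unadjusted p under 0.05 (slope -0.39, adjusted p = 0.259 in limma), as did 13.2% of all genes. The count depended on single libraries. *Fis1* came under the unadjusted threshold without MSUS 1 (slope -0.39), MSUS 5 (-0.44) or MSUS 23 (-0.51), *Mief1* without control 14 (-0.38) or MSUS 6 (-0.40), and *Opa1* without MSUS 6 (0.29). Without control 24 the slope of *Fis1* was -0.23. With *Malat1* as a further covariate the slopes were -0.013 for *Fis1*, -0.11 for *Mief2*, -0.24 for *Mief1* and 0.0023 for *Opa1*. After adjustment 0 of the 10 members had a slope with p under 0.05, against 0.0485% of all genes (7 genes, all among the 13 transcripts that make up the mean) and 0.0832% without the group term.

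**Figure D3:**
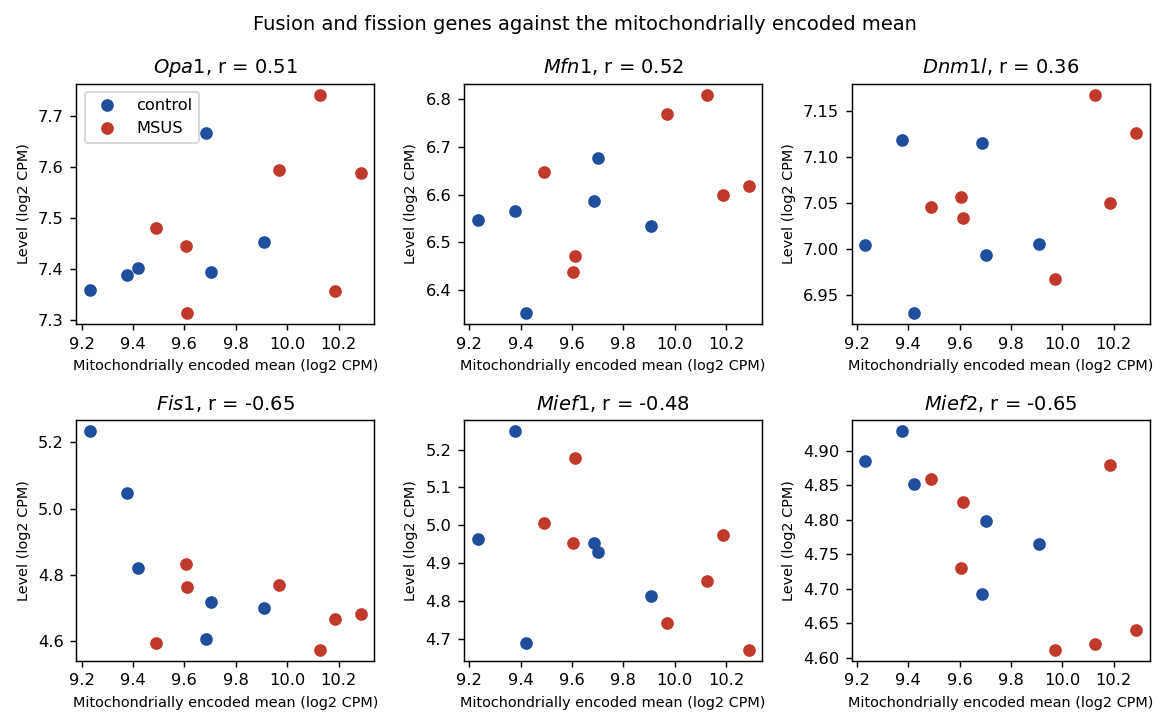
Level of 6 fusion and fission genes (log2 CPM) against the mean log2 CPM of the 13 mitochondrially encoded transcripts, with one dot per mouse (blue, 6 controls and red, 7 MSUS). Fis1, Mief1 and Mief2 slope down (r = -0.65, -0.48 and -0.65) and Opa1 and Mfn1 slope up (r = 0.51 and 0.52).

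The members differ in the length and GC content of their transcripts. Principal transcripts of *Opa1* (6230 bp, 43.5% GC), *Yme1l1* (4707 bp, 38.0% GC), *Mfn1* (4562 bp, 45.9% GC) and *Dnm1l* (3966 bp, 40.9% GC) are longer and poorer in GC than the median gene tested (2981 bp, 49.8% GC). Those of *Fis1* (786 bp, 56.6% GC) and *Mief2* (2522 bp, 57.6% GC) are shorter and richer in GC. *Mief1* is long with a GC content near the median (5148 bp, 50.2% GC). *Mff* (1894 bp, 46.8% GC), *Oma1* (1915 bp, 48.5% GC) and *Mfn2* (4341 bp, 53.1% GC), whose r was near 0, are mixed in both. The dependence of log2 CPM on transcript length and GC content was then removed within each sample, an adjustment chosen after values were seen. It was removed from the levels of the genes but not from the mitochondrial mean they were set against. After it, r with the mitochondrial mean was -0.40 for *Fis1*, -0.68 for *Mief2*, -0.61 for *Mief1*, 0.33 for *Mfn1* and 0.21 for *Opa1*. For *Mff* it became 0.43, and for *Oma1*, *Dnm1l*, *Mfn2* and *Yme1l1* it was 0.17, 0.04, -0.06 and -0.06. In the fit over all genes after this correction, *Mief1* was the 1 member of 10 with an unadjusted p under 0.05 (slope -0.43), against 5.59% of all genes, and the slopes were -0.13 for *Fis1*, -0.17 for *Mief2* and 0.047 for *Opa1*.

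The members did not vary as a block. Of their 45 pairs, 20 had a positive and 25 a negative r across the 13 samples, and the median was -0.04. The strongest positive coefficient was that of *Mfn2* and *Mief1* (r = 0.65, rho = 0.57) and the strongest negative that of *Opa1* and *Mief2* (r = -0.84, rho = -0.78). The second was the same in either group (r = -0.84 in controls and in MSUS samples) and lay between -0.89 and -0.83 when each mouse was left out in turn. After regression on the mitochondrial mean it was -0.78. In 4 samples, MSUS 1, MSUS 5, MSUS 26 and control 10, the genes stood apart, with both the highest levels of *Opa1* (7.59 to 7.74 log2 CPM, against 7.31 to 7.48 in the other 9) and the lowest of *Mief2* (4.61 to 4.69, against 4.73 to 4.93). The same 4 samples had the most positive slope of log2 CPM on transcript length over all genes. It was 0.029 to 0.138 per doubling of length, against -0.067 to 0.0032 in the other 9. Within the 4, the slope of MSUS 26 (0.138) lay far above the next, that of control 10 (0.051). The split was made after values were seen, so gaps between the 4 and the other 9 are partly set by the choice. After correction for length and GC content the difference between *Opa1* and *Mief2* was 2.84 to 2.99 in these 4 and 2.52 to 2.71 in the other 9 samples, and r over all 13 samples was -0.51. Among these 9 samples r was -0.40, and 0.35 after the correction. The 4 left out hold the highest levels of *Opa1* and the lowest of *Mief2*, so the 9 cover a narrower range. The part of this narrower range in the change of r was not tested. These coefficients are the extremes of 45 and are given as a description.

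**Figure D4:**
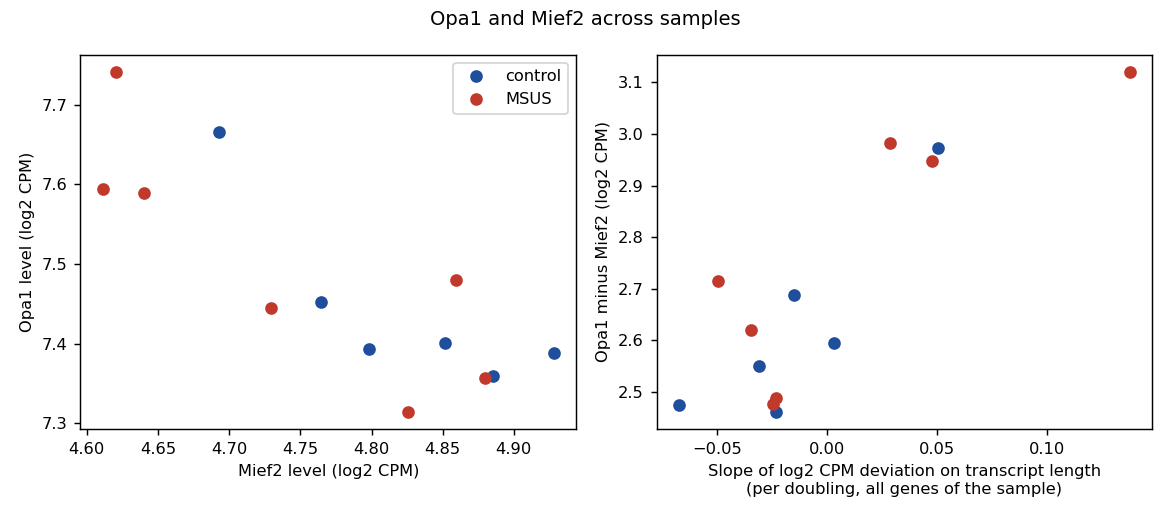
Left, Opa1 against Mief2 (log2 CPM) in 6 control (blue) and 7 MSUS (red) samples. Right, the difference Opa1 minus Mief2 against the slope of log2 CPM on transcript length over all genes of the same sample. The 4 samples with the most positive slope had differences of 2.95 to 3.12, against 2.46 to 2.72 in the other 9. This split was made after values were seen.

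Genes whose levels followed the mean deviation of the 10 members most closely over the 13 samples were *Ndufb9*, a subunit of complex I (r = 0.87), *Asb3* (0.86), *Dnaja3*, a chaperone of the mitochondrial matrix (0.85), *Pyurf* (0.84) and *Loxhd1* (0.81). The most opposed were *Prkag3*, a regulatory subunit of the AMP-activated kinase (r = -0.87), *Zfp488* (-0.83), *Gbp4* (-0.82), *Usp38* (-0.82) and *Dgke* (-0.81). The mean deviation of the members ran only from -0.089 in MSUS 5 to 0.070 in MSUS 6. *Loxhd1* (mean 0.36 in controls and 0.29 log2 CPM in MSUS samples) and *Gbp4* (-0.0084 and 0.038) had levels near the count floor. These genes were the extremes of the genes tested, with members and predicted genes left out. They are listed as a description, without a test.

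Other genes of mitochondrial dynamics were taken from 8 lists with 79 genes, of which 74 were tested. The genes below the count filter were *Camk2a*, *Chac1*, *Gdap1*, *Ppargc1a* and *Trib3*. Of the 74, 3 were higher and 3 lower in MSUS samples with p under 0.05 (8.11%, against 5.42% of all genes), with a median log2 fold change of -0.01 against -0.0018 over all genes, and 0 passed after adjustment. *Pprc1*, a coactivator of the PGC-1 family that drives mitochondrial biogenesis, had the smallest p. Its levels were 4.77 to 5.19 with a median of 5.04 in controls and 5.15 to 5.50 with a median of 5.27 log2 CPM in MSUS samples, so that only the lower end of the MSUS samples overlapped with the controls. The log2 fold change was 0.29 (SE 0.09, adjusted p = 0.878 in limma). It was 0.20 with the mitochondrial mean and 0.19 with *Malat1* as covariate, and passed the unadjusted threshold with neither. *Dnm2*, a dynamin known for membrane scission in endocytosis, had levels of 7.09 to 7.26 with a median of 7.12 in controls and 7.10 to 7.42 with a median of 7.39 log2 CPM in MSUS samples. Its log2 fold change was 0.16 (SE 0.06, adjusted p = 0.878 in limma), and it passed with neither covariate (0.11 with the mitochondrial mean, 0.10 with *Malat1*). Both kept an unadjusted p under 0.05 whichever of the 13 samples was left out.

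Of the other genes with p under 0.05, 3 are described here, and each lost it when single libraries were left out. *Inf2*, a formin that polymerizes actin at sites of division, had a low level and a log2 fold change of 0.48 (SE 0.22), and passed in 6 of 13 such fits, and with neither edgeR nor DESeq2. *Vdac1*, the main channel of the outer membrane, had -0.14 (SE 0.06) and passed in 5 of 13. *Asns*, an asparagine synthetase and target of ATF4 in the stress relay downstream of OMA1, had -0.16 (SE 0.08) and passed in 5 of 13. It did not pass with DESeq2, where its log2 fold change was also -0.16. With the mitochondrial mean as covariate the log2 fold change was -0.059 for *Asns*, -0.16 for *Vdac1* and 0.38 for *Inf2*, and only *Vdac1* passed the unadjusted threshold. With *Malat1* as covariate none of the 3 passed (-0.016, -0.088 and 0.29). After the length and GC correction none of the 3 passed either, with log2 fold changes of -0.14, -0.12 and 0.44 in the same order. The adjusted p was 0.878 in limma for all 3, and unadjusted p was highest without control 22 for *Inf2*, control 9 for *Vdac1* and control 24 for *Asns*.

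By list, 0 of 20 genes of the inner membrane scaffold and its partners, 0 of 10 kinases, phosphatases and anchors acting on DRP1 and 0 of 5 genes of mitochondrial transport had p under 0.05. Among genes with a known transcript length, the most abundant of these lists per kb were *Chchd3*, a component of the cristae junction complex, *Ppp3ca*, the catalytic subunit of calcineurin, and *Kif5b*, a kinesin heavy chain. Their log2 fold changes were -0.03, 0.01 and 0.02. Of 7 nuclear-encoded genes of mitochondrial content, 1 had p under 0.05 (against 5.42% of all genes) and 0 had a positive log2 fold change (against 7141 of the 14421 genes tested), with a median of -0.09, and *Hspa9*, a matrix chaperone and the most abundant of them, had -0.03. *Pink1*, a kinase of mitochondrial quality control and the most abundant of its list, had -0.11 (adjusted p = 0.878 in limma), *Mtfr1l* had -0.03, *Gabpa* -0.07 and *Atf4* 0.06. For the slope on the mitochondrial mean, 3 of the 74 genes had p under 0.05 upwards and 4 downwards, where 8.72% of all genes had such a p in either direction.

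**Figure D5:**
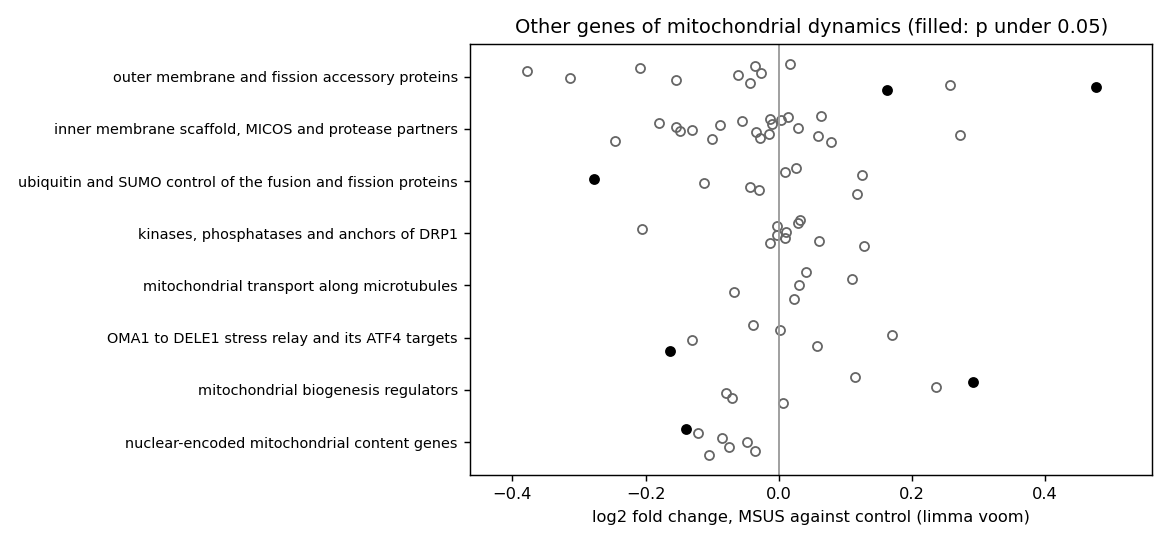
Log2 fold change, MSUS against control, of 74 other genes of mitochondrial dynamics in 8 lists, one dot per gene (limma voom). Filled dots are the 6 genes with an unadjusted p under 0.05, 3 on each side of 0, and open dots are the other 68.

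The cell type of the preparations was checked with marker lists. All 10 Sertoli cell markers passed the count filter, with a summed level of 13396 to 16498 CPM in controls and 13501 to 16140 in MSUS samples, and *Clu* had the highest CPM, undivided by length, with a mean of 8470. The 4 elongated spermatid markers summed to 847 to 1378 CPM in controls and 730 to 1775 in MSUS samples, led by *Prm2* with a mean of 640 CPM. Of 6 macrophage markers only *Mrc1* passed, with a mean of 453 CPM, and the other 5 stayed below the filter. Spermatocyte markers (led by *Piwil1*) summed to 109 to 267 CPM over all samples, those of round spermatids (led by *Spaca1*) to 64.7 to 146, those of Leydig cells (*Star*) to 30.0 to 83.2, those of endothelial cells (*Pecam1*) to 52.5 to 74.0 and those of spermatogonia (*Stra8*) to 2.65 to 5.81. Markers of peritubular myoid cells (*Acta2*) summed to 7.56 to 58.9 CPM with a median of 16.6 in controls and to 10.8 to 87.0 with a median of 31.3 in MSUS samples. Their mean log2 CPM was 0.56 higher in MSUS samples. Mean marker levels used only the markers that passed the count filter, which were 2 of 6 for spermatogonia and 1 of 6 for macrophages. Across the 13 samples, r of the mean marker level with the mitochondrial mean was 0.47 for myoid, 0.49 for Leydig, -0.50 for spermatocyte and -0.44 for Sertoli cell markers, and between -0.17 and -0.03 for the other 5 lists. The part of these 4 lists in the results was not tested. No marker of these lists was at 0 in all samples. Between the groups, 0 of the marker genes tested had p under 0.05, against 5.42% of all genes. With so few markers this count does not show that the cell composition was equal. With the mean of the elongated spermatid markers as covariate, 0 of the 10 fusion and fission genes had p under 0.05, against 8.35% of all genes.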

How the data were processed

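Single-end reads were trimmed with Trim Galore 0.6.5 and assigned with Salmon 1.1.0 to GENCODE vM23 transcripts (GRCm38). The authors deposited estimated counts per gene without normalization, and how transcripts were summed to genes is not given in the sources used here. The table holds 54281 features, of which 27170 have no gene name. These held 20.7% to 26.7% of the counts per sample and were left out. All columns were matched to a sample, leaving 0 unmatched.

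Estimated counts were rounded, filtered with filterByExpr and normalized with TMM (edgeR 4.0.16). The study's methods name limma with voom, which was run here in version 3.58.1 on 6 control and 7 MSUS samples with the group as the term (R 4.3.3). DESeq2 1.42.0 and the quasi-likelihood test of edgeR served as alternatives. P-values were adjusted by the Benjamini-Hochberg method across every gene in the fit. A second fit added the mean log2 CPM of the 13 mitochondrially encoded rows as a covariate, and its slope was tested. Transcript length, GC content and gene coordinates come from GENCODE vM21 (GRCm38), an earlier release on the same build, and 92.9% of the genes tested had a length. Promoter windows come from RefSeq, where all 10 members matched. Members and lists were chosen with earlier results of these data known. Named genes were the members, the mitochondrially encoded rows, pathway genes with p under 0.05 or the highest level per kb in their list, the 5 genes most and least like the members' mean, and the leading markers. *Malat1*, a covariate among the alternatives, and the promoter motifs stand outside this rule, and the motifs were chosen after values were seen. The values of 1 listed pathway gene, included in the counts, are not reported here. *March5* stands for the listed *Marchf5*. Mice are named by group and number, and the numbers pair nothing. Spread between samples limits the precision more than counting error for most members. Differences between mice and between library preparations were not separated in it.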

Additional observations from a re-analysis of the deposited data

Results flagged for a closer look

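Within each group, the highest and lowest samples were compared with the next one by Dixon's criterion at 95%. It singled out 4 samples in 82 groups of values, where chance gives about 1 in 20. *Opa1* was 7.67 log2 CPM in control 10, against 7.36 to 7.45 in the other controls. *COX3*, a mitochondrially encoded subunit of complex IV, was 10.27 log2 CPM in MSUS 23, against 10.75 to 11.09 in the other MSUS samples. The summed level of round spermatid markers was 146 CPM in MSUS 11, against 70.3 to 99.9 in the other MSUS samples. The summed level of peritubular myoid markers was 58.9 CPM in control 22, against 7.56 to 23.4 in the other controls. Without control 10 the log2 fold change of *Opa1* was 0.10, with unadjusted p over 0.05 in limma.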

How the results depend on the processing

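For the difference between MSUS and control samples, 0 of the 10 members had p under 0.05 in any alternative, which were edgeR, DESeq2, library size alone, no count filter, 3 covariates, the length and GC correction (added after values were seen) and leaving out each sample. Of the alternative values of their log2 fold changes, 196 kept their direction and 14 did not. Those that changed it were, with the *Malat1* level as covariate, *Opa1* (-0.062), *Dnm1l* (-0.00030), *Fis1* (0.057), *Mief1* (0.090) and *Mief2* (0.0022), with the mitochondrial mean as covariate *Opa1* (-0.015) and *Mief1* (0.082), and after the length and GC correction *Mff* (0.0051). Leaving out single samples moved *Mff* between -0.047 and 0.011, *Mief1* between -0.073 and 0.034 and *Oma1* between -0.016 and 0.15. The count of all genes with p under 0.05 was 781 and became 1182 with no count filter, which tests more genes, 365 with the mitochondrial mean, 401 with *Malat1* and 1204 with the elongated spermatid markers as covariate, and lay between 534 (without MSUS 5) and 1121 (without control 10). With library size alone it was 794, split into 325 higher and 469 lower. The count of pathway genes, 6, became 2 with the mitochondrial mean, 2 with *Malat1* and 3 after the length and GC correction, and lay between 3 (without MSUS 5, control 9 or control 24) and 8 without single samples.

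For the slope on the mitochondrial mean, the count of members with p under 0.05 was 0 and became 1 with no group term, 1 with a mean without *ND4L*, 1 after the length and GC correction and 0 to 2 without single samples. The count over all genes, 1257, became 1904 with no group term, 399 with *Malat1* as a further covariate and 749 after the length and GC correction, and lay between 858 and 1690 without single samples. With library size alone it was 1323, split into 984 upward and 339 downward slopes, against 668 and 589. Slopes changed direction for *Mfn2* with library size alone (0.089) and no group term (0.024), for *Dnm1l* with *Malat1* (-0.0045) and after the length and GC correction (-0.038), for *Mff* with no group term (-8.4e-05) and for *Yme1l1* after the length and GC correction (-0.073). Without single samples *Mfn2* lay between -0.14 and 0.12, *Mff* between -0.029 and 0.090 and *Oma1* between -0.16 and 0.30. The causes of these changes were not tested. No paired analysis was possible because control and MSUS mice share no number, and the study's record of cages and litters was not used here.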
